A study of Mus musculus with 21 samples.

Results

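Aminoacyl-tRNA synthetases are the enzymes that load each transfer RNA with its amino acid. The genes described here are 35 of these enzymes, taken from 21900 protein-coding genes of the mouse build GRCm38 by a list of symbols, and all 35 symbols were found. They comprise 20 cytosolic enzymes and 15 mitochondrial enzymes, the latter being those whose symbol ends in 2. Lars2 was not included because of a known recurrent signal site. A gene was called positive in a list when a peak lay within 1 kb of its annotated span. Apart from that exclusion, the list follows enzyme function, and it was drawn up with earlier results of these data known.

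Every cell needs these enzymes to make protein, and a cell keeps separate sets for the cytosol and for the mitochondrial ribosome, both encoded in the nucleus. Several cytosolic enzymes are held together in a multisynthetase complex, and many cytosolic synthetase genes are targets of ATF4, the transcription factor that responds to amino acid shortage through the amino acid response element. GARS and KARS are known to serve both compartments from 1 gene each, EPRS joins the glutamyl and prolyl enzymes in 1 chain, and FARSA and FARSB are the subunits of the phenylalanyl enzyme. H3K4me3, trimethylation of lysine 4 of histone H3, marks the start of active and poised genes. PSME3 is a nuclear activator of the proteasome, and the study asked where it sits on chromatin before and during myogenesis.

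The data were CUT&RUN peak lists from C2C12, an established mouse myoblast line that fuses into myotubes when serum is withdrawn. In CUT&RUN an antibody directs a nuclease to a chromatin protein or mark, and the fragments it frees are sequenced and called as peaks. Cycling cells were grown in 20% FBS and frozen unfixed in 10% DMSO, with 3 libraries for PSME3 and 3 for H3K4me3, and the authors also deposited 1 pooled list for each antibody. Day 2 cells had spent 48 h in 2% horse serum after reaching confluence, and gave 1 library per antibody in each of 4 preparations, which were fresh or frozen in 10% DMSO, and either native or crosslinked in 0.1% formaldehyde. All libraries came from the same line, and the labels name no genetic change. Frozen native is the day 2 preparation handled like the cycling cells.

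The cycling PSME3 lists held 1200, 776 and 3070 peaks in replicates 1, 2 and 3, and 5812 when pooled. The H3K4me3 lists held 18077, 40999 and 19365 peaks, and 23663 when pooled. At day 2 the PSME3 lists held 18 to 186 peaks and the H3K4me3 lists 14372 to 20245. The lists hold no read numbers, so depth is unknown and cannot be separated from these differences. Of the myoblast genes checked, Myod1, Myf5, Des, Cdh15 and Chrna1 carried H3K4me3 in 3 of 3 cycling and 4 of 4 day 2 lists. The blood, epithelial and liver genes Ptprc, Epcam and Alb and the endothelial gene Cdh5 carried none in any list, whereas endothelial Pecam1 had a peak in 2 of 3 cycling lists and 1 of 4 day 2 lists.

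The start regions of these genes are shown first, because they are where both H3K4me3 and PSME3 were found. RefSeq promoter windows for GRCm38.p6, which run from 250 bases before to 50 bases after a start site, were matched for 26 of the 35 genes, 13 cytosolic and 13 mitochondrial. The letters TGATGNAA, the core of the amino acid response element, occurred on either strand in the windows of 5 cytosolic genes (Aars, Gars, Iars, Tars and Yars) and in 0 of the 13 mitochondrial ones. Of all 32851 windows of the same length, 3.97% held these letters. The stretches below read 5′ to 3′ along the gene's own strand, and the capitals mark the motif, which appears as its reverse complement where it lies on the opposite strand.

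Aars chr8:111033840-111033869 (plus strand): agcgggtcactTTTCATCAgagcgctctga
Gars chr6:55037960-55037989 (plus strand): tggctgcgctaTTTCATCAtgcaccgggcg
Iars chr13:49682126-49682155 (plus strand): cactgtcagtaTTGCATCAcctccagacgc
Tars chr15:11399655-11399684 (minus strand): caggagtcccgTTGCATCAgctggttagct
Yars chr4:129189895-129189924 (plus strand): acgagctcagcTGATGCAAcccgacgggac

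These enzymes load alanine, glycine, isoleucine, threonine and tyrosine. The ETS core CCGGAA was found in 12 of the 26 windows, 5 cytosolic and 7 mitochondrial, against 14.9% of all windows. The CCAAT box was in 13 of the 26, 7 cytosolic and 6 mitochondrial, against 37.4% of all windows. The NRF1-like motif, a palindrome that reads the same on both strands, was in 5 windows, 3 cytosolic and 2 mitochondrial, against 6.23% of all windows. No match of one motif overlapped a match of another in these windows. A match describes letters in the window and does not show that a factor was bound. Among the genes with PSME3 in cycling cells, described further on, the matches below lay inside the pooled PSME3 peak.

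Sars ETS, chr3:108445251-108445280 (minus strand): taacactgcggcTTCCGGcgagctaggcgc
Iars2 NRF1-like, chr1:185329374-185329403 (minus strand): ccgccccggaGCGCGTGCGCagttcctcgc

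H3K4me3 was present at every synthetase gene. All 35 genes had a peak in each of the 8 H3K4me3 lists, the pooled list, the 3 cycling replicates and the 4 day 2 preparations. Over all protein-coding genes the share was 60.9% in the pooled list, 58.8%, 63.6% and 59.1% in cycling replicates 1, 2 and 3, and at day 2 56.9% in frozen native, 57.6% in frozen crosslinked, 54.5% in fresh native and 57.5% in fresh crosslinked cells. For 34 of the 35 genes the pooled list had a peak within 1 kb of an annotated gene boundary, and the exception was Aars2, whose peak lay inside the annotated span over its RefSeq start site. All 26 RefSeq promoter windows held a peak in every list, except that of Dars, the aspartyl enzyme, in the fresh native day 2 list. In 12 of the 35 genes the highest pooled peak also spanned the boundary of another protein-coding gene. The count was 12 or 13 in the other H3K4me3 lists. Examples are Lyrm4 beside Fars2, Bpnt1 beside Iars2, S100pbp beside Yars, and Hars with Hars2. For all such genes the mark cannot be assigned to 1 gene.

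Signal strength is given as the fold enrichment that MACS2 assigned over its background, and as the percentile of a gene's highest peak among all peaks of the same list. In the pooled list the 35 genes had a median percentile of 86.0, ranging from 60.01 to 97.9, beside a median of 76.5 over the 13346 protein-coding genes with a peak. In cycling replicates 1, 2 and 3 the median was 75.3, 91.7 and 85.3 for the synthetase genes and 69.6, 85.9 and 72.2 for all genes with a peak. The median for the synthetase genes was thus the higher one in each replicate.

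**Figure D1:**
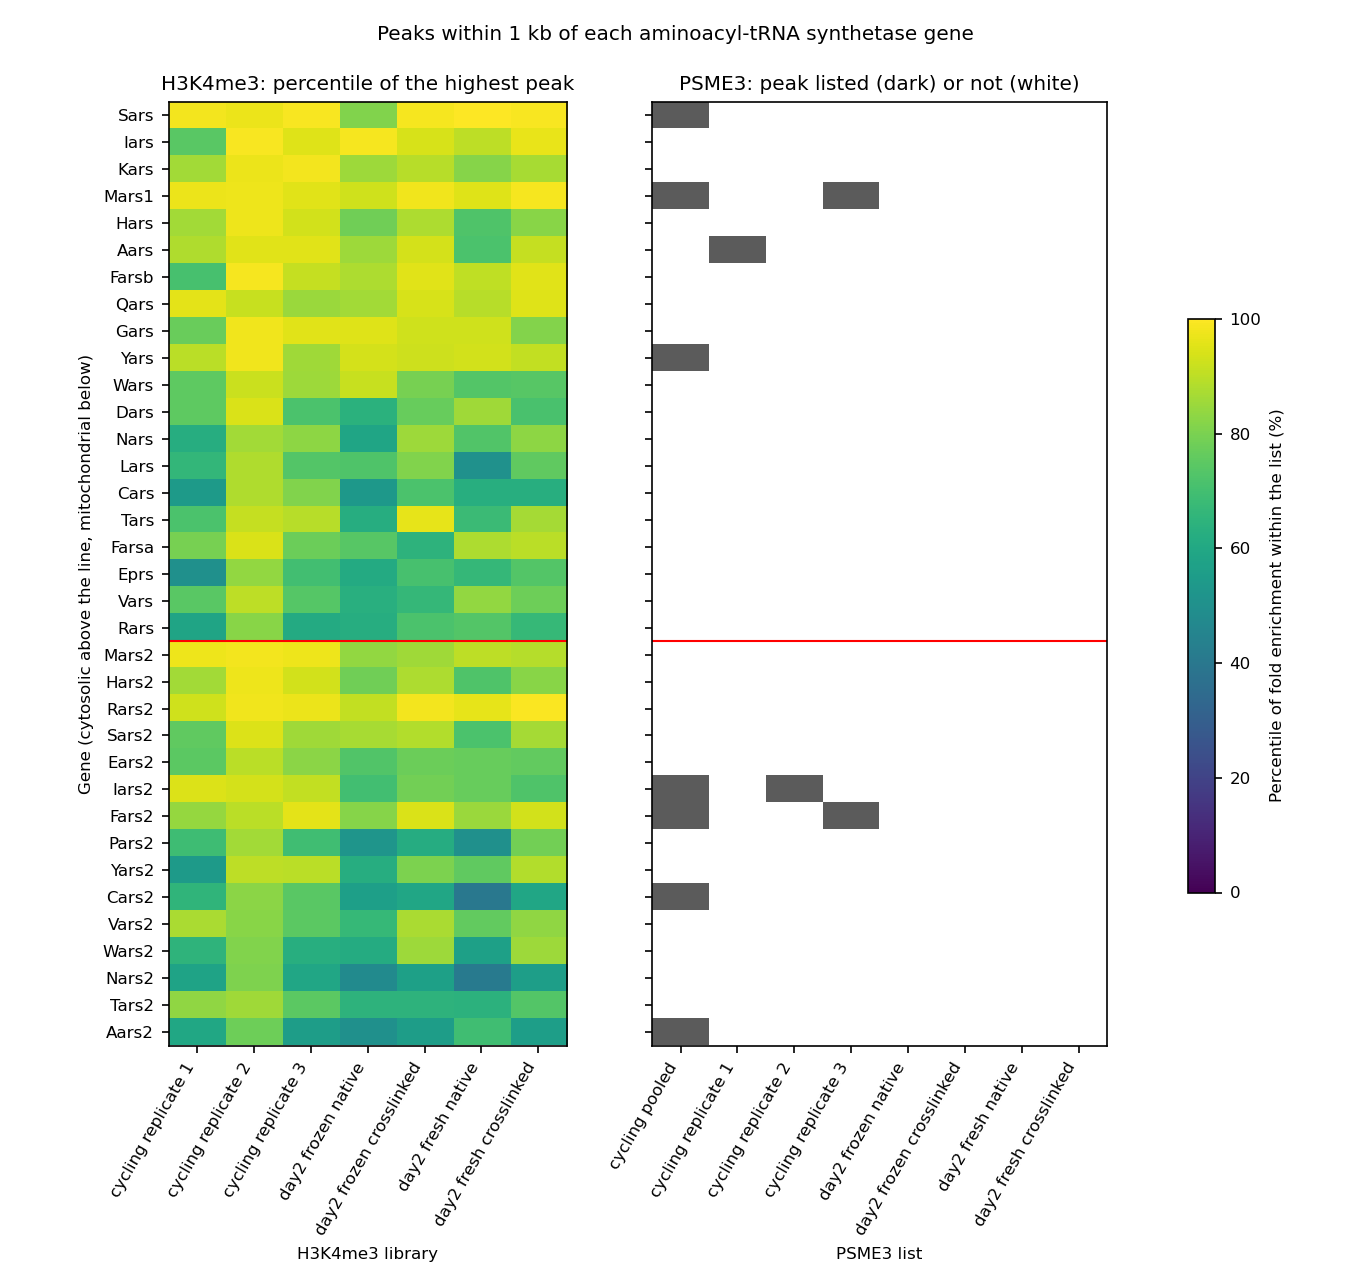
Left, percentile (%) of the highest H3K4me3 peak of each of the 35 synthetase genes (y axis) in the 7 H3K4me3 libraries (x axis), with cytosolic genes above the red line and mitochondrial genes below it, in order of pooled fold enrichment. Right, whether a PSME3 peak was listed within 1 kb in each of the 8 PSME3 lists: the dark cells fall in the cycling lists, and the 4 day 2 columns are empty.

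Among the cytosolic genes, Sars, which loads serine, had the highest pooled fold enrichment (21.5), and Rars, which loads arginine, the lowest (10.1). The Sars peak was at percentile 98.3, 96.9 and 98.9 in cycling replicates 1, 2 and 3, and at day 2 at 81.2 in frozen native, 98.5 in frozen crosslinked, 99.7 in fresh native and 98.8 in fresh crosslinked cells. The Rars peak was at percentile 58.3, 82.4 and 61.2 in the cycling replicates and at 62.1, 71.6, 73.3 and 67.0 in the same order of day 2 preparations. Frozen native was thus the 1 library in which Sars stood low, while Rars lay below Sars in all 7 libraries.

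Among the mitochondrial genes the highest pooled fold enrichment was that of Mars2, the methionyl enzyme (20.0), and the lowest that of Aars2, the alanyl enzyme (8.999). Mars2 was at percentile 97.4, 98.3 and 97.4 in the cycling replicates and at 84.0, 85.6, 90.2 and 89.0 at day 2, in the order given for Sars. Aars2 was at 59.6, 77.8 and 55.6 in the cycling replicates and at 50.01, 55.8, 69.5 and 56.2 at day 2. Percentiles are ranks within lists of 14372 to 40999 peaks, so a value in one list is not a level that can be set against another list. Mars2 ranked above Aars2 in each of the 7 libraries.

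To compare the enzyme classes, the median percentile and the median width of the highest H3K4me3 peak were taken within each cycling library. The median percentile was 75.2, 94.4 and 85.6 for the cytosolic and 75.4, 89.7 and 82.8 for the mitochondrial genes in replicates 1, 2 and 3. The difference, cytosolic minus mitochondrial, was 2.44 ± 2.52 percentile points (SD, n = 3 libraries; p = 0.5 by an exact permutation test that flips signs, two-sided), and it was negative in replicate 1. This difference was smaller than its spread between replicates. It depended on the measure: it was 8.32 with the q-value in place of fold enrichment and 6.58 for peaks over the promoter window, an alternative added after the data were seen, and positive in all 3 replicates in both (exact permutation test, p = 0.25, the smallest it can give).

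The cytosolic genes had wider H3K4me3 peaks in each cycling replicate. The median width was 2658.5, 3039.5 and 2684.5 bp at the cytosolic genes and 2288, 2422 and 2262 bp at the mitochondrial genes in replicates 1, 2 and 3. The difference was 470 ± 130 bp (SD, n = 3 libraries; p = 0.25 by the same exact permutation test), and 0.25 is the smallest p that 3 replicates allow. Over all genes with a peak the median was 2453.5, 2746 and 2584.5 bp, so the cytosolic medians lay above and the mitochondrial medians below it in every replicate. The widths of the classes overlapped, with cytosolic peaks of 1595 to 6788 bp and mitochondrial peaks of 1020 to 3651 bp in replicate 1. In the pooled list the medians lay closer together, at 2978 bp for the cytosolic and 2806 bp for the mitochondrial genes.

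The same order held in each of the 4 day 2 libraries. The median was 2379 against 1713 bp in frozen native, 2548 against 1709 bp in frozen crosslinked, 1873 against 1480 bp in fresh native and 2259.5 against 1758 bp in fresh crosslinked cells, cytosolic first. With 1 library per preparation these values have no test. The cytosolic genes also had the longer median annotated span, 26970 bp against 17329 bp. The longest spans went the other way, 70940 bp for cytosolic and 420168 bp for mitochondrial genes. The part of gene length in the width was not tested.

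**Figure D2:**
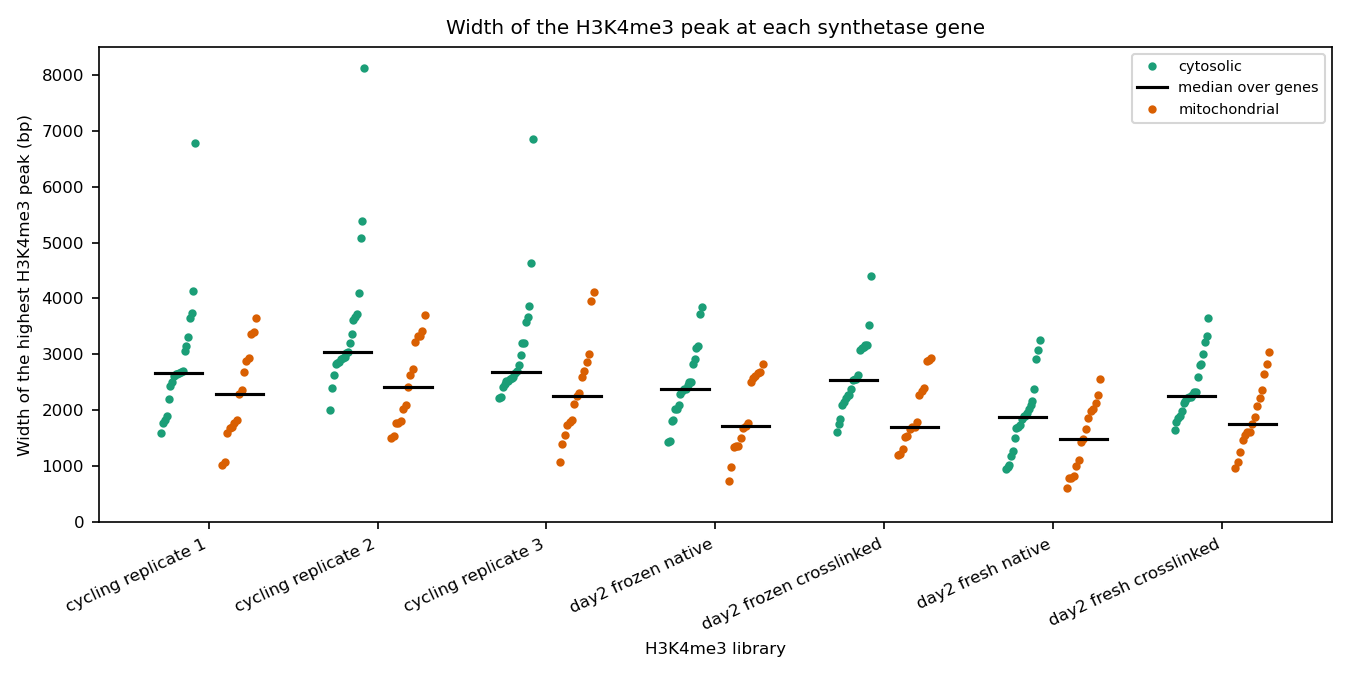
Width (bp) of the highest H3K4me3 peak of each synthetase gene (1 point per gene) in each of the 7 H3K4me3 libraries, with the class median as a bar. The cytosolic median lies above the mitochondrial median in all 7 libraries, while the points of the classes overlap.

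The list held 12 pairs of 1 cytosolic and 1 mitochondrial gene whose symbols share a stem, and these were compared after the class medians had been seen. Farsa and Farsb with Fars2, and Eprs with Ears2 and Pars2, are not such pairs and stay out of the counts that follow. The cytosolic gene had the wider peak in 9, 9 and 10 of the 12 pairs in cycling replicates 1, 2 and 3, and in 8 in the pooled list. It was wider in all 7 libraries for 9 pairs, those for alanine, cysteine, isoleucine, asparagine, serine, threonine, valine, tryptophan and tyrosine. For alanine, the Aars width in replicate 1 (1766 bp) and fresh native cells (1015 bp) was that of a peak away from the start. That peak lay near the upstream end of the annotated span. For threonine, Tars2 (2806 bp) was wider than Tars (2731 bp) in the pooled list. Mars2 was wider than Mars1 in 7 of 7 libraries, and Rars2 wider than Rars in 5 of 7. Outside the pairs, the mitochondrial Fars2 peak was 2879, 2743 and 2860 bp wide in the cycling replicates, beside 1817, 4107 and 2235 bp at Farsa and 2641, 2955 and 2573 bp at Farsb, so it was the wider one in replicates 1 and 3. Eprs had 3659, 2914 and 3578 bp, beside 3402, 3320 and 3964 bp at Ears2 and 1070, 2022 and 1399 bp at Pars2. Hars and Hars2, which lie head to head, shared 1 peak and could not be compared.

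The widest mark in cycling cells was that of Vars, the cytosolic valyl enzyme, named here after its values were seen. Its peak was 6788, 8132 and 6851 bp wide in cycling replicates 1, 2 and 3, and 3720 bp in frozen native, 4403 bp in frozen crosslinked, 3086 bp in fresh native and 3331 bp in fresh crosslinked day 2 cells. All day 2 widths lay below all cycling widths, as they did for most genes in each preparation (shares given with the day 2 results). Aars2 had the narrowest peak of the 35 genes in each cycling replicate, at 1020, 1497 and 1081 bp. Vars lies beside D17H6S56E-5, and its pooled peak spanned a boundary of that gene.

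PSME3 was found at few synthetase genes in cycling cells. The pooled list had a peak at 7 of the 35 genes (20%), namely Aars2, Cars2, Fars2, Iars2, Mars1, Sars and Yars, beside 21.9% of all protein-coding genes. Among the protein-coding genes with a pooled H3K4me3 peak, which all 35 synthetase genes have, the share was 35.6%. Among the 9778 genes whose H3K4me3 percentile lay in the range of the synthetase genes, it was 40.1%. The synthetase share was thus close to that of all genes and lower than that of genes with comparable H3K4me3, a comparison of counts with no test, in which 1 gene is 2.86% of the list.

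In the single replicates PSME3 was listed at 1, 1 and 2 synthetase genes, which is 2.86%, 2.86% and 5.71%, beside 4.56%, 3.6% and 13.4% of all protein-coding genes in replicates 1, 2 and 3. Among genes with a pooled H3K4me3 peak the shares were 7.34%, 5.9% and 21.9%. The genes were Aars in replicate 1, Iars2 in replicate 2, and Fars2 and Mars1 in replicate 3, so 0 genes were found in 2 replicates, beside 4.27% of all protein-coding genes and 7% of those with a pooled H3K4me3 peak. The counts in replicates 1 and 2 and the count of 0 are near the background for a list of this length. For 3 of the 7 genes of the pooled list (Fars2, Iars2 and Mars1) the pooled peak overlapped a peak of a replicate. Counting pooled and single lists together, 8 genes had PSME3 in cycling cells and 27 had none.

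**Figure D3:**
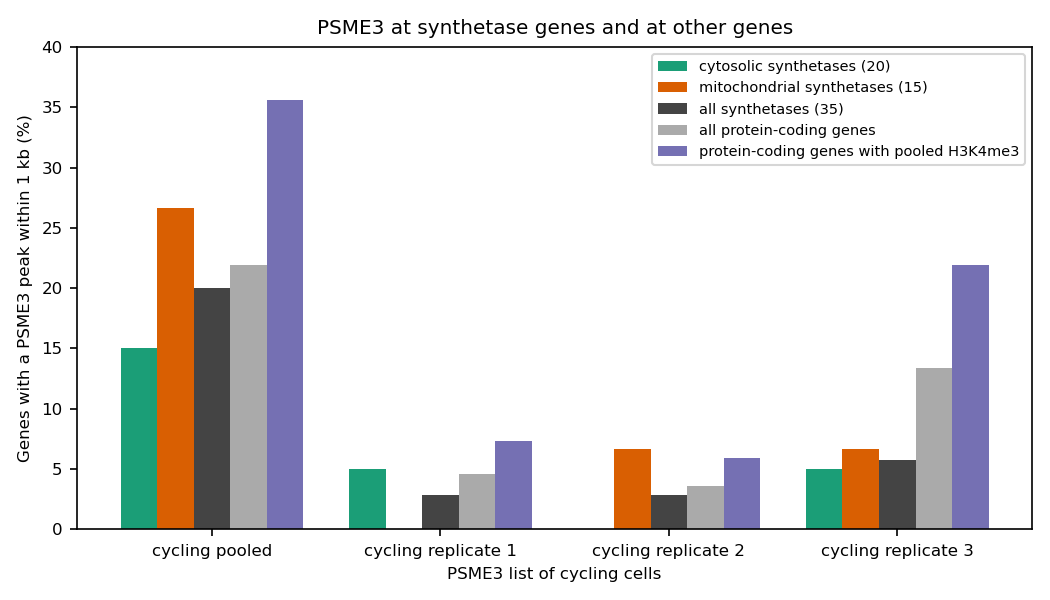
Percent of genes with a PSME3 peak within 1 kb (y axis, from 0) in the pooled list and the 3 replicate lists of cycling cells, for the 20 cytosolic, the 15 mitochondrial and all 35 synthetase genes, for all protein-coding genes, and for protein-coding genes with a pooled H3K4me3 peak. In each of the 4 lists the bar for all synthetase genes is lower than the bar for genes with H3K4me3.

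Against H3K4me3 in the same cells, the share of synthetase genes with PSME3 was 3.81% ± 1.65 (SD, n = 3 libraries) and that with H3K4me3 100% in all 3. The difference of -96.2 percentage points had p = 0.1 by a two-sided exact permutation test, the smallest p that 3 against 3 libraries allow, and p = 0.25 with the replicates paired. The H3K4me3 lists are much longer, so the test was repeated with as many H3K4me3 peaks, taken by smallest q-value, as the PSME3 list of the replicate held. H3K4me3 was then found at 11.4%, 8.57% and 51.4% of the synthetase genes, beside 6.88%, 4.92% and 17.8% of all protein-coding genes, and the difference in replicates 1, 2 and 3 was -8.57, -5.71 and -45.7 percentage points. Its mean was -20 (exact permutation test, p = 0.1), while H3K4me3 had an SD of 24.0 over the 3 libraries, and without replicate 3 the mean was -7.14. In replicates 1 and 2 these shares are a few genes each, near the background, and replicate 3 stands apart.

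Cytosolic and mitochondrial genes did not differ in PSME3 beyond the spread between replicates. The pooled list had 3 of 20 cytosolic genes (15%) and 4 of 15 mitochondrial genes (26.7%). The replicate shares were 3.33% ± 2.89 for the cytosolic and 4.44% ± 3.85 for the mitochondrial genes (SD, n = 3), and the difference of -1.11 ± 5.85 percentage points had p = 0.75 by the exact permutation test with flipped signs. These shares rest on 4 gene calls, and without replicate 2 the difference was 1.67.

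Most PSME3 peaks at synthetase genes lay at the start of the gene. Taking 1 peak per gene, the pooled one where there was one, 7 of the 8 genes had the peak centre within 250 bp of the RefSeq start site and 6 had it downstream of the start. Of all 5657 pooled PSME3 peaks on the chromosomes of the promoter table, 53.0% had their centre within 1 kb of a start, and of those 70.5% were within 250 bp and 54.1% downstream. Every PSME3 peak at a synthetase gene overlapped an H3K4me3 peak of the matching list, 7 of 7 pooled peaks and 1, 1 and 2 replicate peaks, beside 93.6% of all pooled PSME3 peaks and 78.2%, 95.5% and 94.8% of those of the replicates.

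Aars, which loads alanine, had its PSME3 peak in replicate 1 alone, at chr8:111033903-111034074, with a fold enrichment of 4.34, rank 858 of 1200, and a q-value of 0.0442. It was centred 146.5 bp downstream of the start, inside an H3K4me3 peak of 2553 bp, and downstream of the amino acid response element match printed above. That H3K4me3 peak was at percentile 86.6 in replicate 1, and the one over the start was at 95.3 and 95.7 in replicates 2 and 3. The highest Aars peak of replicate 1, at percentile 88.2, lay at another site, near the upstream end of the annotated span.

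Fars2, the mitochondrial phenylalanyl enzyme, had PSME3 in the pooled list at chr13:36117364-36117831 (fold enrichment 2.63, rank 5181 of 5812) and in replicate 3 at chr13:36117607-36117923 (3.55, rank 1802 of 3070). The pooled peak was centred just upstream, at -45.5 bp from the start, and the replicate 3 peak 122 bp downstream of it, a start that Fars2 shares in close range with a boundary of Lyrm4. Both values placed the peak in the lower part of its list.

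Iars2, the mitochondrial isoleucyl enzyme, had PSME3 in the pooled list at chr1:185328961-185329404 (fold enrichment 3.00, rank 2409 of 5812, q-value 0.00612) and in replicate 2 at chr1:185329061-185329325 (3.95, rank 492 of 776). The peaks were centred 218.5 and 208 bp downstream of the start. Its H3K4me3 peak was at percentile 94.8, 93.4 and 90.8 in the cycling replicates and at 69.5, 78.7, 76.7 and 72.4 at day 2, in the order given for Sars. These ranks come from lists of different lengths, and 27.1% to 60.2% of all genes ranked below their lowest cycling replicate in a day 2 preparation.

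Mars1, the cytosolic methionyl enzyme, had PSME3 in the pooled list at chr10:127311481-127311687 (fold enrichment 2.45, rank 5723 of 5812, q-value 0.0730) and in replicate 3 at chr10:127311100-127311567 (3.10, rank 2931 of 3070). These were centred 202 and 452.5 bp downstream of the start. Mars1 was among the weakest PSME3 peaks of both lists, while its H3K4me3 peak was among the strongest, at percentile 97.2, 97.3 and 95.5 in the cycling replicates.

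The other 4 genes had PSME3 only in the pooled list, and Cars2 and Yars are named after their values were seen. The strongest was Aars2 at chr17:45506901-45507129, with a fold enrichment of 3.57, rank 583 of 5812, a q-value of 0.000128 and a centre 174 bp downstream of the start, while its pooled H3K4me3 fold enrichment was the lowest of the 35 genes. Cars2, the mitochondrial cysteinyl enzyme, had a peak at chr8:11550390-11550661 with a fold enrichment of 2.89 and a q-value of 0.00854, and Sars had one at chr3:108444811-108445452 with 2.92 and 0.0206. At Yars the peak at chr4:129188957-129189584 (2.60, q-value 0.0210) was centred upstream, at -632.5 bp from the start, outside the gene and over S100pbp. At a q-value of at most 0.01, the pooled list kept 3 of the 7 genes and the replicate lists 0.

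**Figure D4:**
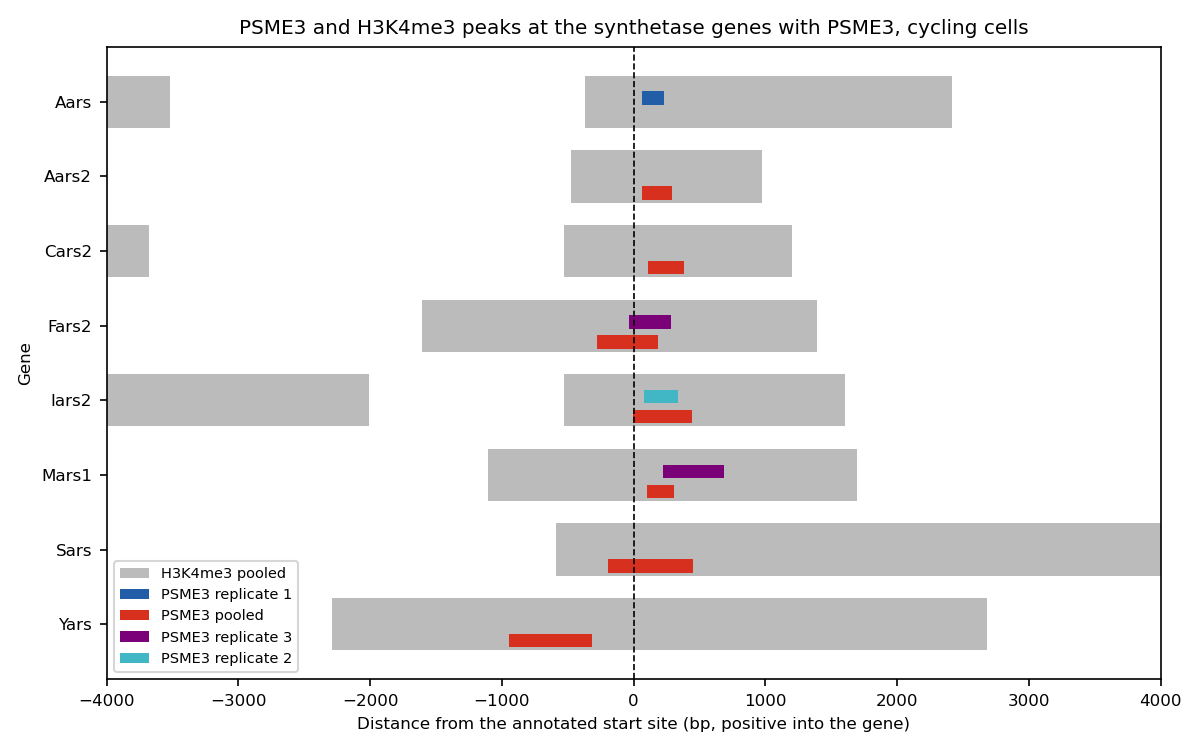
PSME3 peaks (coloured bars) and pooled H3K4me3 peaks (grey bars) at the 8 synthetase genes with PSME3 in cycling cells, drawn by distance in bp from the annotated start site (dashed line), with positive values into the gene; grey bars that reach the edge run beyond it. All PSME3 bars lie over grey, and Yars is the gene whose bar is centred more than 250 bp upstream of the start.

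Over all genes, PSME3 was more frequent where the H3K4me3 peak was stronger. Of the genes with a pooled H3K4me3 percentile of 50 to 70, 70 to 80, 80 to 90 and 90 to 100, a pooled PSME3 peak was present at 25.3%, 35.8%, 42.1% and 54.9%. The synthetase genes in these ranges with PSME3 were 1 of 3, 0 of 7, 3 of 11 and 3 of 14. The 7 genes with PSME3 had a median pooled H3K4me3 fold enrichment of 17.3 (8.999 to 21.5) and a median width of 2804 bp, and the 28 without it 16.3 (10.1 to 20.2) and 2931 bp, so the groups overlapped over nearly their whole range.

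At day 2 no synthetase gene had a PSME3 peak in any preparation. The count was 0 of 35 in all 4 lists, where 0.909% of all protein-coding genes were called in frozen native, 0.361% in frozen crosslinked, 0.0457% in fresh native and 0.0365% in fresh crosslinked cells. Of the genes with a pooled cycling H3K4me3 peak, 1.49%, 0.584%, 0.0749% and 0.0599% were called in the same order. At these shares a list of 35 genes would hold less than 1 called gene, so the count of 0 is near the background. Because depth is unknown, loss of PSME3 and lower detection cannot be told apart.

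H3K4me3 peaks at day 2 were mostly narrower than in any cycling replicate, both at the synthetase genes and elsewhere. In frozen native cells 29 of 35 genes had a width below their lowest cycling replicate, 16 of 20 cytosolic and 13 of 15 mitochondrial, beside 65.2% of all genes with a peak. The count was 25 of 35 in frozen crosslinked cells (53.4% of all genes), 34 of 35 in fresh native cells (92.7%), and 26 of 35 in fresh crosslinked cells (66.2%). The exception in fresh native cells was Qars, the glutaminyl enzyme, whose highest peak changed site between libraries. Its width of 2381 bp there was that of a peak that began past the annotated end of the gene, within the 1 kb margin. The peak at that site was 3611 and 3870 bp wide in cycling replicates 2 and 3. The 1905 bp of replicate 1 was that of the peak at the start. A width above the highest cycling replicate was seen for 0 genes in the first 3 preparations and for 1, Gars, in fresh crosslinked cells, beside 7.7%, 11.4%, 1.32% and 7.11% of all genes. These counts compare 1 library with 3, and a peak's width also depends on depth and on how neighbouring peaks are joined.

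Percentiles move with the length of a list, as in cycling replicate 2 with its 40999 peaks and its median of 85.9 over all genes, so the counts that follow are read only against those of all genes. By percentile, 24 of 35 genes ranked below their lowest cycling replicate in frozen native cells, beside 56.3% of all genes. They comprised 13 of 15 mitochondrial and 11 of 20 cytosolic genes. In the other preparations the mitochondrial count was 6 of 15 (frozen crosslinked), 9 of 15 (fresh native) and 6 of 15 (fresh crosslinked), and the cytosolic count 2, 7 and 3 of 20, where all genes gave 27.1%, 60.2% and 29.1%. The cytosolic share was level with that of all genes in frozen native cells (55%) and below it in the other preparations. The mitochondrial share was level with it in fresh native cells (60%) and above it in the others, without a test since each preparation is 1 library. A percentile above the highest cycling replicate was seen for 0 genes in frozen native, 5 in frozen crosslinked, 1 in fresh native and 3 in fresh crosslinked cells, beside 5%, 9.27%, 5.08% and 8.94% of all genes. The 5 were Mars1, Rars2, Tars, Vars2 and Wars2, the 1 was Sars, and the 3 were Mars1, Rars2 and Wars2. The median percentile of the mitochondrial genes was 67.0 in frozen native, 80.1 in frozen crosslinked, 72.5 in fresh native and 82.1 in fresh crosslinked cells, and that of the cytosolic genes 79.7, 88.6, 82.7 and 84.9.

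Genes that work beside the synthetases were counted in the same way, from a list of 26. All 26 had H3K4me3 in the pooled list, beside 60.9% of all protein-coding genes, and 25 had it in every cycling replicate and every day 2 preparation. In single lists the share of all protein-coding genes was 58.8% to 63.6% in cycling cells and 54.5% to 57.6% at day 2. The exception was Slc7a11, the cystine transporter, listed in 2 of 3 cycling replicates and 0 of 4 day 2 lists. PSME3 was in the pooled list at 11 of the 26 (42.3%), beside the 21.9% of all protein-coding genes and 35.6% of those with H3K4me3 given above. At day 2 the count was 0 of 26 in all 4 lists, beside 0.0365% to 0.909% of all protein-coding genes, which is near the background.

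By role, PSME3 was found at 2 of 3 scaffold genes of the multisynthetase complex (Aimp2 and Eef1e1), at 0 of 4 genes for mitochondrial glutaminyl-tRNA amidation and methionyl-tRNA formylation, and at 2 of 7 genes of the elongation factors that carry or recycle charged tRNA. It was found at 7 of 12 genes of the amino acid response, among them Atf4 itself (pooled fold enrichment 2.31, listed in 1 replicate). Of these 12 genes, 4 had it in at least 1 replicate list. The role counts cover 3 to 12 genes each and were not tested. They stand beside 21.9% of all protein-coding genes and 35.6% of those with H3K4me3. Of the 26, 2 had PSME3 in 2 of the 3 replicate lists. Slc7a5, the light chain of a transporter for large neutral amino acids, had a pooled fold enrichment of 3.64 at chr8:121898206-121898717, and Ddit3, a stress-induced transcription factor, had 2.99 at chr10:127288444-127290968. Both were listed in replicates 1 and 3 and not in replicate 2. A count of 2 in 26 is near the 7% of genes with H3K4me3 that reached 2 replicates.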

How the data were processed

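The authors deposited MACS2 peak lists of 14 PSME3 and H3K4me3 libraries and 2 pooled lists of cycling cells. 7 IgG libraries were not analysed here. Per the labels, the submitters' processing notes name Trim Galore, Bowtie2, MACS2 and the build mm10, the UCSC name of GRCm38. Versions, options and the control library are not given in the sources used here. The authors deposited the fold enrichment of each peak, a ratio over the background MACS2 estimated. They also deposited p-values and q-values on a -log10 scale, and the listed q-values were all under 0.1. The deposited display score was not used. No read counts are in the lists, so no depth, interval or floor is given.

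From these lists, peaks within 1 kb of each gene span (at least 1 bp of overlap) were taken with pandas 2.3.3, numpy 2.4.6 and scipy 1.17.1 under Python 3.11.15, and drawn with matplotlib 3.10.9. Percentiles and widths are those of the gene's highest peak by fold enrichment, within a list. Start sites and strands came from the RefSeq promoter table of GRCm38.p6, matched for all genes but Cars, Hars, Hars2, Lars, Nars, Pars2, Rars, Vars and Wars. Classes were compared by exact permutation tests over libraries. The paper calls the 3 cycling libraries biological replicates. The p-values take these libraries as the unit, and the number of libraries sets their smallest value. The step that overlaps peaks with genes was tested on simulated peaks, and the other steps were not. A promoter stretch and a marker gene that were examined are not reported here.

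Whether replicate numbers pair the PSME3 and H3K4me3 libraries was checked by the share of peaks per autosome, which deviated together in libraries of the same number (Pearson r of 0.540, 0.555 and 0.275 over 19 autosomes in replicates 1, 2 and 3). Between PSME3 replicate 1 and H3K4me3 replicate 3 r was 0.522, and between PSME3 replicate 3 and H3K4me3 replicate 1 it was 0.266. The check thus tells replicate 2 from the others and does not tell replicates 1 and 3 apart, and the paired test is given beside the unpaired one.

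The genes, the list of related genes, the motifs and the tests were chosen with earlier results of these data known. Named with values were genes with PSME3 in at least 1 replicate or day 2 list, genes lacking H3K4me3 in any list (none did), the highest and lowest gene of each class by pooled H3K4me3 fold enrichment, and related genes with PSME3 in at least 2 replicate lists. Other genes are said to be named after their values were seen, stand as members of a count, or fall outside this rule. Among the last are Qars, an exception to a count, and Farsa, Farsb, Eprs, Ears2 and Pars2, left out of the pairs. Alternatives tried were a stricter q-value (at most 0.01), a gene boundary in place of the span, an overlap of at least 50%, PSME3 in at least 2 replicates, equal numbers of peaks, the replicate block, q-value in place of fold enrichment, each replicate left out, and the classes without Hars and Hars2 or without Gars and Kars.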

Additional observations from a re-analysis of the deposited data

How the results depend on the processing

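The number of synthetase genes with pooled PSME3, 7, fell to 3 when the q-value had to be 0.01 or less, and to 0 when a peak in at least 2 replicate lists was required. Counted as genes whose pooled peak overlapped a peak of a remaining replicate, it was 1 to 3 with each replicate left out, lowest without replicate 3. At a q-value of at most 0.01, the synthetase PSME3 peaks that overlapped H3K4me3 numbered 3 in the pooled list and 0 in replicates 1, 2 and 3, and the related genes with PSME3 fell from 11 to 4. A stricter q-value admits fewer peaks, and the overlap count was already 3 with all replicates.

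The cytosolic minus mitochondrial difference in PSME3 ran from -4.17 to 1.67 percentage points with each replicate left out, and turned positive without replicate 2. With the replicate block the PSME3 minus H3K4me3 difference was -96.2 percentage points with p = 0.25 by an exact sign-flip permutation test, the smallest it can give. With as many H3K4me3 as PSME3 peaks the difference was -20 with the block (exact permutation test, p = 0.25), a fit added after the data were seen, and ran from -27.1 to -7.14 with each replicate left out, smallest in size without replicate 3. The tests between classes are made within a library and take no block. The difference between classes in H3K4me3 width stayed positive, from 331 to 622 bp under the alternatives and 396.5 to 520 bp with each replicate left out. The difference in percentile was 1.44 to 8.32 under the alternatives (exact permutation p of 0.25 to 0.5), highest with the q-value, and 1.29 to 3.79 with each replicate left out. No comparison of 3 replicates can reach a p of 0.05 here, and missing read numbers leave the depth behind each absent peak unknown.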
